A study of Ovis aries with 22 samples.

Results

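Focal adhesion and actin crosslinker genes were followed in the arterial sinus wall of sheep after the Ross procedure, an operation in which the pulmonary root is moved into the aortic position and becomes the pulmonary autograft. The 9 genes TLN1, VCL, TNS1, ZYX, FLNA, SYNPO2, PDLIM3, PDLIM7 and CSRP1 were chosen by name as genes whose proteins couple actin to adhesions and dense bodies, not by their values, although the choice was made with earlier results of these data known. All 9 were found among the 26200 gene symbols of the deposited count tables, and all 9 were among the 14979 genes that passed the filter on low counts.

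Autograft sinus came from 3 sheep sampled 6 months after Ross surgery. Aortic sinus and pulmonary sinus came from 4 other sheep, named D3 to D6 in the labels and described as non-operated in the design text, each giving 1 library of each sinus. The sources used here do not give breed, age or sex. The library labelled aortic sinus replicate 1, from animal D3, carries the treatment label of Ross surgery, against the design text. The fits of the 9 genes, and of the genes named as called in the further gene lists, were therefore also run without it. For the cell type markers, results without this library are not reported here. An autograft animal's own pulmonary sinus before surgery was not analysed here, so each autograft comparison is between different animals.

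Smooth muscle cells of the arterial media pull on the elastic and collagenous matrix through integrin adhesions at the plasma membrane and anchor their thin filaments at dense bodies in the cytoplasm. Talin and vinculin form a mechanical link from integrin to actin, tensin and zyxin are further proteins of adhesions, and filamin crosslinks the actin network. Synaptopodin-2 and the LIM proteins of the PDLIM and CSRP families bind alpha-actinin, the main protein of dense bodies. Many of these genes are also known targets of serum response factor and its coactivators, which sense the state of actin assembly.

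The 11 libraries held between 17380599 and 20741334 counts. Levels are given as CPM, counts of a gene scaled to a common library size after TMM scaling, a factor per library that evens out differences in RNA composition. A library held at least 3216 counts of each of the 9 genes, so counting error was small beside the spread between animals. The 2 sequencing runs of a library gave CPM values for these genes whose ratio lay between 0.954 and 1.12. The tissue label was checked on 8 smooth muscle markers, among them MYH11, ACTA2 and TAGLN. They summed to 25795 CPM in autograft replicate 1, 53069 CPM in replicate 2 and 51464 CPM in replicate 3. The sums were 50916 to 73715 CPM in aortic sinus and 54348 to 91324 CPM in pulmonary sinus. Only autograft replicate 1 thus lay below the lowest aortic library, while every autograft library lay below the lowest pulmonary library.

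All 9 genes had lower mean levels in the autograft than in either native sinus, and the fitted difference was below 0 for all 9 in both autograft comparisons, where it was below 0 for 49.9% of all genes tested. Together they took 1.06% to 1.62% of the counts of an autograft library, against 2.11% to 3.14% in aortic sinus and 2.34% to 4.12% in pulmonary sinus, so that every autograft library lay below every native one. FLNA alone took 0.574% to 0.909% of the autograft counts, against 1.27% to 1.94% in aortic and 1.42% to 2.60% in pulmonary sinus. In 5 of the 9 genes, TLN1, TNS1, FLNA, SYNPO2 and PDLIM7, all autograft libraries lay below all 8 native libraries, where 7.18% of all genes tested did so. In bulk tissue, fewer cells of a type and less RNA per cell cannot be told apart.

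**Figure D1:**
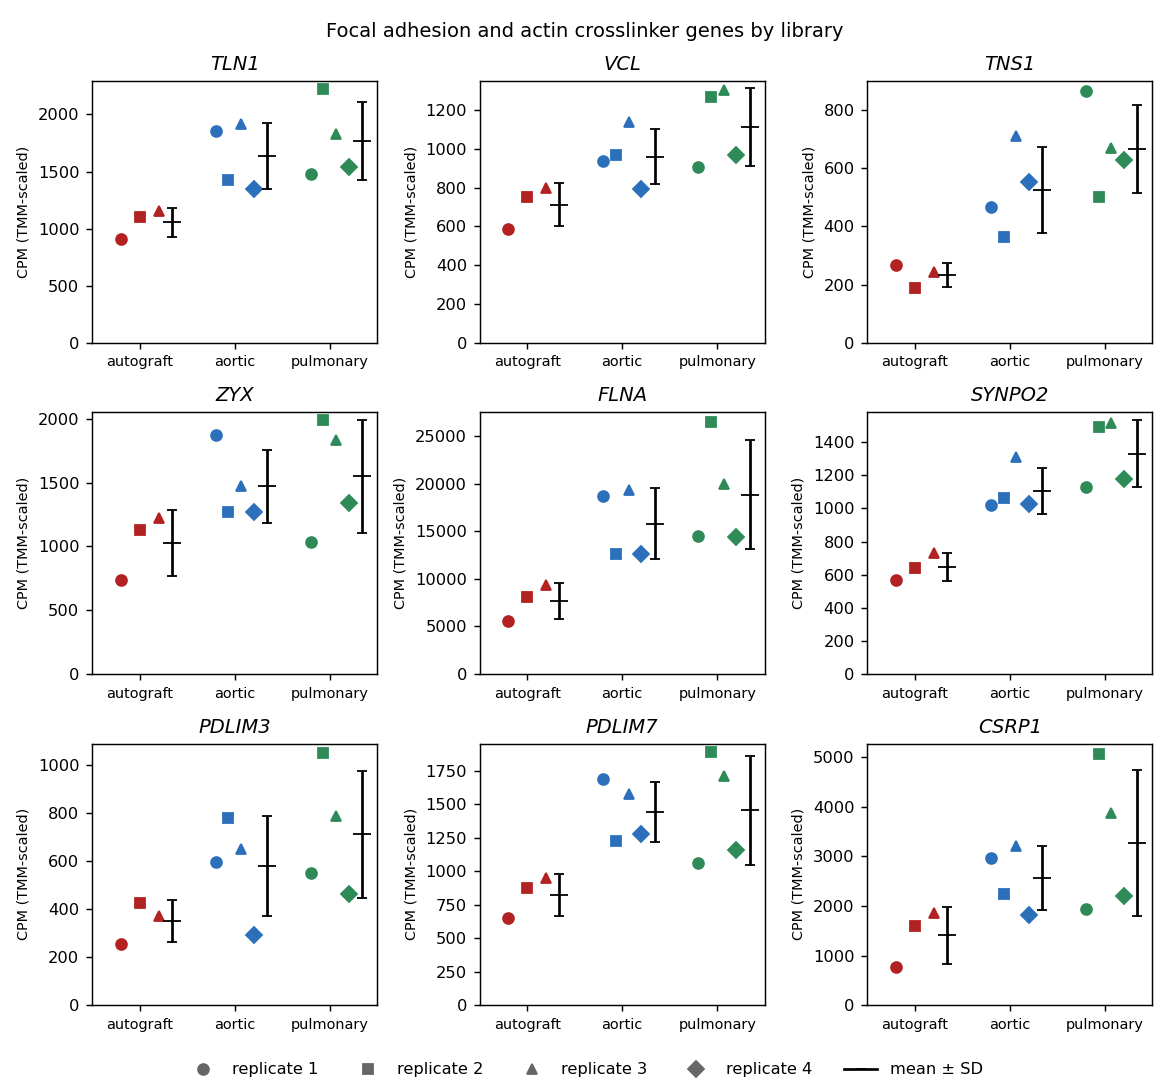
CPM of each gene (vertical axis, starting at 0) in every library of autograft, aortic and pulmonary sinus; marker shapes give the replicate number, and the bar beside each group is the mean ± SD. The 3 autograft libraries of TLN1, TNS1, FLNA, SYNPO2 and PDLIM7 lie below all 8 native libraries.

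The first comparison set the autograft against native pulmonary sinus, since the graft began as pulmonary root. TNS1, SYNPO2, FLNA, TLN1, PDLIM7 and VCL fell, and ZYX, PDLIM3 and CSRP1 were lower on average without passing the test. A gene was called when its adjusted p in edgeR's quasi-likelihood test, over all genes tested, was under 0.05. Thus 6 of 9 genes were called lower and 0 higher, where 5.29% of all genes tested were called lower and 6.05% higher. All 9 had an unadjusted p under 0.05, where 30.6% of all genes tested did. The median log2 fold change was -1.02 over the 9 genes and 0.00127 over all genes tested. The libraries of both groups did not overlap for 8 of the 9 genes, all lower, where 11.2% of all genes tested were lower without overlap.

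Talin-1, encoded by TLN1, binds the integrin tail and actin and opens under force to recruit vinculin. TLN1 stood at 913, 1101 and 1154 CPM in the autograft libraries, against 1482, 2227, 1825 and 1535 CPM in pulmonary sinus and 1853, 1428, 1913 and 1344 CPM in aortic sinus. Every autograft library lay below every native one. The log2 fold change against pulmonary sinus was -0.74 ± 0.19 (SE; edgeR adjusted p = 0.0323). Its call ended without autograft replicate 1 (0.0854), autograft replicate 2 (0.0820), pulmonary replicate 2 (0.0810) or pulmonary replicate 3 (0.0796).

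VCL encodes vinculin, which reinforces the bond between talin and actin. It stood at 585, 754 and 797 CPM in the autograft, against 906, 1267, 1302 and 970.2 CPM in pulmonary sinus. In aortic sinus it stood at 940, 967, 1141 and 795 CPM, so that 1 aortic library, replicate 4, lay just below the highest autograft library. Among the 6 genes called against pulmonary sinus, VCL had the smallest difference (-0.64 ± 0.18, edgeR adjusted p = 0.0448). The call ended in 10 of the 11 fits with 1 library left out, all but the one without pulmonary replicate 1, with an adjusted p of at most 0.121 (without autograft replicate 1). Since all 3 groups share 1 estimate of the spread, leaving out an aortic library also moved this value.

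Tensin-1, encoded by TNS1, caps and binds actin and is found in the long, matrix-bound fibrillar adhesions. It had the largest fitted difference of the 9 genes in both autograft comparisons. TNS1 stood at 267, 187 and 242 CPM in the autograft, against 866, 502, 669 and 629 CPM in pulmonary sinus and 468, 365, 712 and 554 CPM in aortic sinus. The highest autograft library, replicate 1, held 267 CPM and the lowest native library, aortic replicate 2, held 365 CPM. The log2 fold change against pulmonary sinus was -1.52 ± 0.25 (edgeR adjusted p = 0.00941), with a 95% interval from -2.07 to -0.98, and the call held whichever library was left out, with adjusted p up to 0.0401.

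ZYX encodes zyxin, a LIM protein that moves to actin filaments under strain. It stood at 733, 1126 and 1224 CPM in the autograft, against 1036, 1988, 1833 and 1337 CPM in pulmonary sinus and 1872, 1267, 1473 and 1271 CPM in aortic sinus. Pulmonary replicate 1 lay below 2 of the 3 autograft libraries, so the groups overlapped. The difference of -0.59 ± 0.26 did not pass (edgeR adjusted p = 0.145), with a 95% interval from -1.15 to -0.03, and it passed without pulmonary replicate 1 (-0.76, adjusted p = 0.0495).

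FLNA encodes filamin A, which crosslinks actin into networks and ties them to integrins. It was by count the most abundant of the 9 genes, at 5610.2, 8097 and 9376 CPM in the autograft, against 14457, 26472, 20014 and 14418 CPM in pulmonary sinus and 18668, 12634, 19356 and 12588 CPM in aortic sinus. No autograft library reached the lowest native library. The log2 fold change against pulmonary sinus was -1.29 ± 0.29 (edgeR adjusted p = 0.0221). Its call ended without autograft replicate 1 (0.0577), autograft replicate 2 (0.0650), pulmonary replicate 2 (0.0542) or pulmonary replicate 3 (0.0559). The authors' FPKM of FLNA is the same value, 1095, in all 8 native libraries and in autograft replicates 1 and 3, while its CPM over the native libraries alone ran from 12588 to 26472, so the FPKM tables cannot resolve differences of this gene. The log2(FPKM + 1) difference of -0.25 (limma adjusted p = 0.328) rests on autograft replicate 2 alone.

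SYNPO2 encodes synaptopodin-2, or myopodin, which bundles actin and binds filamin and alpha-actinin. It had the narrowest relative spread of the 9 genes within both native groups, with a coefficient of variation of 12.5% in aortic and 15.2% in pulmonary sinus. SYNPO2 stood at 565, 639 and 733 CPM in the autograft, against 1132, 1493, 1515 and 1179 CPM in pulmonary sinus and 1019, 1064, 1310.1 and 1027 CPM in aortic sinus. The highest autograft library held 733 CPM and the lowest native library, aortic replicate 1, held 1019 CPM. The log2 fold change against pulmonary sinus was -1.04 ± 0.16 (edgeR adjusted p = 0.00870), and this call too held whichever library was left out, with adjusted p up to 0.0358.

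The 2 PDZ and LIM genes differed in how steady they were. PDLIM7, which encodes enigma, stood at 647, 874 and 951 CPM in the autograft, against 1062, 1891, 1709 and 1156 CPM in pulmonary sinus and 1686, 1225, 1578 and 1278 CPM in aortic sinus, with no overlap. Its difference from pulmonary sinus was -0.82 ± 0.23 (edgeR adjusted p = 0.0446). The call ended in 9 of the 11 fits with 1 library left out, all but those without pulmonary replicate 1 or 4, with adjusted p up to 0.119 (without autograft replicate 1).

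PDLIM3, which encodes the actinin-associated LIM protein of muscle, stood at 254, 426 and 372 CPM in the autograft, against 548, 1048, 787 and 460.3 CPM in pulmonary sinus. In aortic sinus it stood at 594, 778, 651 and 289.9 CPM, so aortic replicate 4 lay within the autograft range. The difference of -1.02 ± 0.36 from pulmonary sinus did not pass in edgeR (adjusted p = 0.0826) and passed in DESeq2 (0.0228). Its coefficient of variation was 37.1% in pulmonary sinus.

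CSRP1 encodes cysteine and glycine-rich protein 1, a LIM protein of smooth muscle that binds zyxin and alpha-actinin. It varied most of the 9 genes between animals in autograft and pulmonary sinus, with a coefficient of variation of 40.5% in the autograft and 45.0% in pulmonary sinus. CSRP1 stood at 768, 1602 and 1860.2 CPM in the autograft, against 1932, 5064, 3875 and 2209 CPM in pulmonary sinus and 2971, 2242, 3211 and 1812 CPM in aortic sinus. Pulmonary sinus lay above the autograft throughout, while aortic replicate 4 lay below autograft replicate 3. The difference of -1.21 ± 0.39 from pulmonary sinus did not pass in edgeR (adjusted p = 0.0670), and it passed without pulmonary replicate 1 (0.0304) and in DESeq2 (0.0100).

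**Figure D2:**
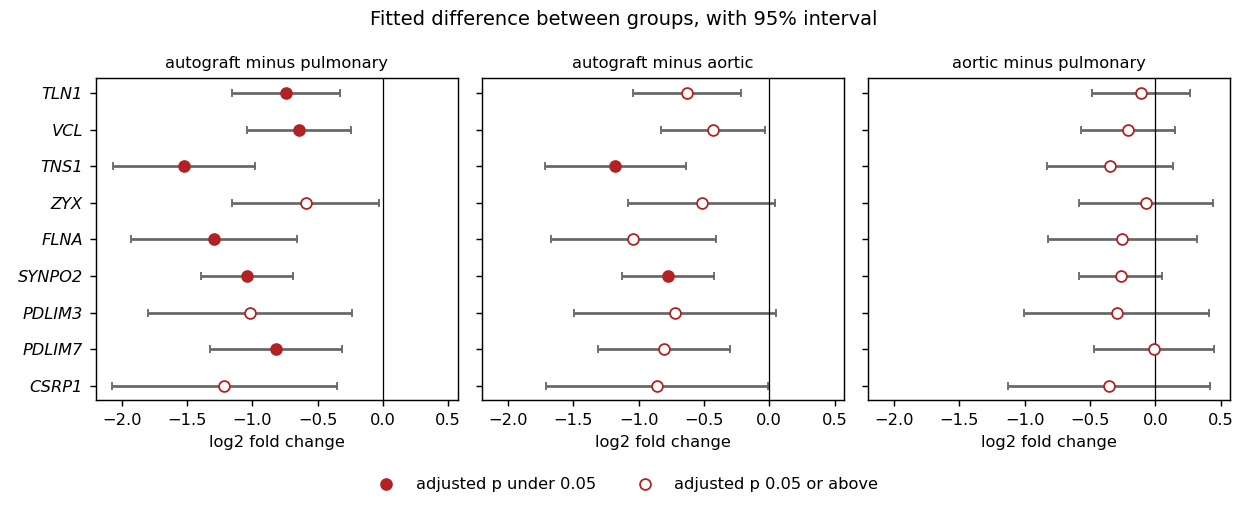
Fitted log2 fold change (horizontal axis) of each gene in the 3 comparisons, with its 95% interval from the edgeR fit; filled points passed at an adjusted p under 0.05. In autograft minus pulmonary sinus 6 of 9 genes passed, in autograft minus aortic sinus 2 and in aortic minus pulmonary sinus 0.

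The second comparison set the same 3 autograft libraries against native aortic sinus, the wall that normally bears aortic pressure. It shares the autograft libraries with the first comparison, so its direction is no separate evidence. TNS1 (-1.18 ± 0.24, edgeR adjusted p = 0.0372) and SYNPO2 (-0.78 ± 0.16, adjusted p = 0.0365) fell, so that 2 of 9 genes were called lower and 0 higher, where 1.43% of all genes tested were called lower and 0.948% higher. An unadjusted p under 0.05 was found for 7 of 9 genes, where 23% of all genes tested had one. In either direction 2.38% of all genes tested were called. The other 7 differences did not pass, at -1.04 ± 0.29 for FLNA, -0.86 ± 0.39 for CSRP1, -0.81 ± 0.23 for PDLIM7, -0.72 ± 0.35 for PDLIM3, -0.63 ± 0.19 for TLN1, -0.52 ± 0.26 for ZYX and -0.43 ± 0.18 for VCL. The median over the 9 genes was -0.78, against 0.00184 over all genes tested.

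Libraries of autograft and aortic sinus did not overlap for 6 of the 9 genes, all lower, where 10.8% of all genes tested were lower without overlap. The 3 that overlapped were VCL, PDLIM3 and CSRP1, in each case through aortic replicate 4. With DESeq2, FLNA, PDLIM7 and TLN1 passed too, giving 5 of 9. Neither edgeR call was stable: that of TNS1 ended in 8 of the 11 fits with 1 library left out, those without any autograft replicate, aortic replicates 1, 3 and 4 and pulmonary replicates 3 and 4, with adjusted p up to 0.118, and that of SYNPO2 ended in 7, those without autograft replicates 1 and 2, any aortic replicate or pulmonary replicate 3, with adjusted p up to 0.113. Without aortic replicate 1, the library with the conflicting label, adjusted p was 0.0719 for both genes and their differences were -1.23 and -0.81.

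The third comparison set aortic against pulmonary sinus. In edgeR 0 of 9 genes passed and 0 had an unadjusted p under 0.05, DESeq2 and limma-voom passed 0 as well, and of all genes tested 0% were called, with 306 (2.04%) at an unadjusted p under 0.05. The fitted differences ran from -0.35 ± 0.35 for CSRP1 to -0.01 ± 0.21 for PDLIM7. The 95% interval was -0.58 to 0.05 for SYNPO2 and -0.83 to 0.14 for TNS1, so that a native difference as large as 0.83 lower in aortic sinus could go undetected for TNS1.

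Per the labels both native sinuses came from the same animals, so the difference can be read within each animal as labelled. Over all genes, however, deviations from the group means did not correlate within D3 (-0.18) or D4 (-0.13). Aortic D4 with pulmonary D3 gave 0.40, and aortic D3 with pulmonary D4 gave 0.26. The readings of D3 and D4 therefore rest on the labels alone. All 9 genes were lower in aortic than in pulmonary sinus in animal D4, with log2 differences from -1.18 to -0.39. In animal D3 7 of the 9 were higher in aortic sinus, up to 0.85 for ZYX, while TNS1 differed by -0.89. In D5 7 genes and in D6 8 genes were lower in aortic sinus. SYNPO2 was the only one of the 9 genes lower in aortic sinus in all 4 animals, with differences of -0.15, -0.49, -0.21 and -0.20 from D3 to D6. The shares of all genes lower within each animal were not computed, and most of the 9 genes moved together across libraries, as given below. These counts therefore only describe single pairs of libraries.

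Across libraries the genes moved together, with TNS1 apart. In 8 of the 9 genes autograft replicate 1 held the lowest autograft value, and in TNS1 it held the highest. Pulmonary replicate 1 held the lowest pulmonary value in 6 genes and the highest in TNS1. After each group's mean was taken out, the median Pearson correlation of a gene's log2 CPM with the other 8 genes over the 11 libraries lay between 0.68 for PDLIM3 and 0.93 for CSRP1, and was -0.27 for TNS1. These correlations describe 11 libraries and share each library's scaling.

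**Figure D3:**
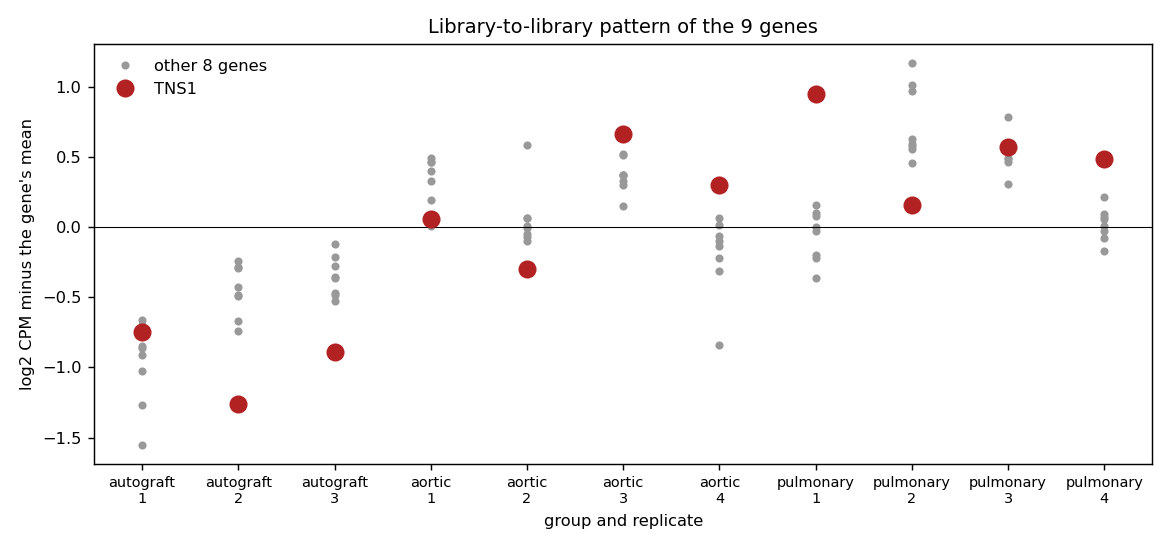
Log2 CPM of each gene minus its own mean over the 11 libraries (vertical axis) by group and replicate, with TNS1 in red and the other 8 genes in grey. TNS1 lies below all the other genes in autograft replicates 2 and 3, aortic replicate 2 and pulmonary replicate 2, and above them in aortic replicates 3 and 4 and pulmonary replicates 1 and 4.

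Levels of different genes can be compared only per length, for which the authors' FPKM tables serve, with the limit that their distribution had been made equal between libraries and that the sources used here do not state the gene lengths. By mean FPKM in the autograft the order was CSRP1 (3820.3 ± 1744, SD, n = 3), FLNA (947 ± 257, tied at 1095 in 2 of the 3 libraries), ZYX (775 ± 48.2), PDLIM7 (671 ± 47.6), PDLIM3 (123 ± 31.4), VCL (122 ± 21.5), TLN1 (110 ± 8.52), SYNPO2 (79.4 ± 9.84) and TNS1 (37.1 ± 9.10). FLNA and ZYX, FLNA and PDLIM7, and PDLIM3, VCL and TLN1 among each other, did not differ beyond their spread. TNS1 was also lowest in aortic (67.3 ± 12.6) and pulmonary sinus (85.7 ± 19.9, SD, n = 4 each). ZYX, TLN1 and CSRP1 held tied values too, each with 4 distinct FPKM values over the native libraries. An SD of FPKM therefore need not show their spread in counts.

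Markers of several cell types differed between the same libraries. The counts of markers called, here and in the next paragraph, stand beside the shares of all genes tested. These were 5.29% lower and 6.05% higher against pulmonary sinus, and 1.43% lower and 0.948% higher against aortic sinus. Of 8 smooth muscle markers tested, 3 fell against pulmonary sinus, MYH11 (-1.30), SMTN (-1.14) and MYOCD (-1.89), and 5 did not pass, among them ACTA2 (-0.58) and DES (-0.25), while against aortic sinus 1 of 8 fell, MYOCD (-1.94). The 8 fibroblast markers summed to 18692 to 24165 CPM in the autograft, against 9647 to 11443 CPM in aortic and 5644 to 13626 CPM in pulmonary sinus, and 3 of them rose against pulmonary and 2 against aortic sinus. The 6 T cell markers summed to 22.2 to 26.5 CPM in the autograft, against 5.48 to 8.35 CPM in aortic and 2.74 to 7.12 CPM in pulmonary sinus, and 4 of them rose against pulmonary and 2 against aortic sinus.

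Markers of other cell types were uneven within groups. The 7 endothelial markers summed to 137 CPM in autograft replicate 1 and to 1569 and 921 CPM in the other autograft libraries, against 225 to 565 CPM in aortic and 111 to 392 CPM in pulmonary sinus. Against pulmonary sinus 2 of them rose. The 5 macrophage markers tested summed to 79.2 to 415 CPM in the autograft, against 55.7 to 138 CPM in aortic and 34.2 to 122 CPM in pulmonary sinus, and 2 of them rose against pulmonary sinus. The summed CPM of adipocyte, cardiac muscle and Schwann cell markers overlapped between the autograft and both native sinuses. The mean log2 CPM of the 5 cardiac markers did not overlap between autograft (4.44 to 4.82) and aortic sinus (5.14 to 5.43), and 1 of them, MYH7, fell against pulmonary sinus (-2.39 ± 0.56, edgeR adjusted p = 0.0256). The Schwann cell marker CDH19 was lower without overlap in the autograft, at 15.4 ± 7.62 CPM, against 43.7 ± 20.0 CPM in pulmonary sinus (-1.51 ± 0.46), and did not pass (edgeR adjusted p = 0.0559). These 2 genes were chosen after their values were seen, and of 5 platelet markers 2 passed the filter, at a sum of at most 21.2 CPM in any library. CD3D and CD3G were at 0 in at least 1 library. The part of these cell types in the fall of the 9 genes was not tested.

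The level of each gene was also set against the mean log2 CPM of the 8 smooth muscle markers of the same library, as a description with no test. The 8 markers themselves differed unequally between autograft and pulmonary sinus, from -1.89 for MYOCD to -0.12 for ACTG2, so the relative level depends on the markers chosen. This relative level differed between autograft and pulmonary sinus by between -0.67 for TNS1 and 0.26 for ZYX, with SYNPO2 at -0.19, TLN1 at 0.11 and PDLIM7 at 0.05. Autograft replicate 1 could lie apart, for TLN1 at -1.03, against -1.68 and -1.50 in autograft replicates 2 and 3. For CSRP1 it was instead the lowest, at -1.28. FLNA was the only gene of the 9 whose relative level did not overlap between autograft and pulmonary sinus, at 1.20 to 1.59 in the autograft, against 1.75 to 1.94 in pulmonary sinus, a difference of -0.43. For TNS1 the relative level spread widely within groups, from -4.24 to -2.80 in the autograft and from -3.79 to -2.31 in pulmonary sinus. Against aortic sinus the relative levels of all 9 genes overlapped, with differences from -0.43 for TNS1 to 0.29 for VCL. The shares of all genes tested without overlap on this relative scale were not computed, so neither count can be set against them.

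**Figure D4:**
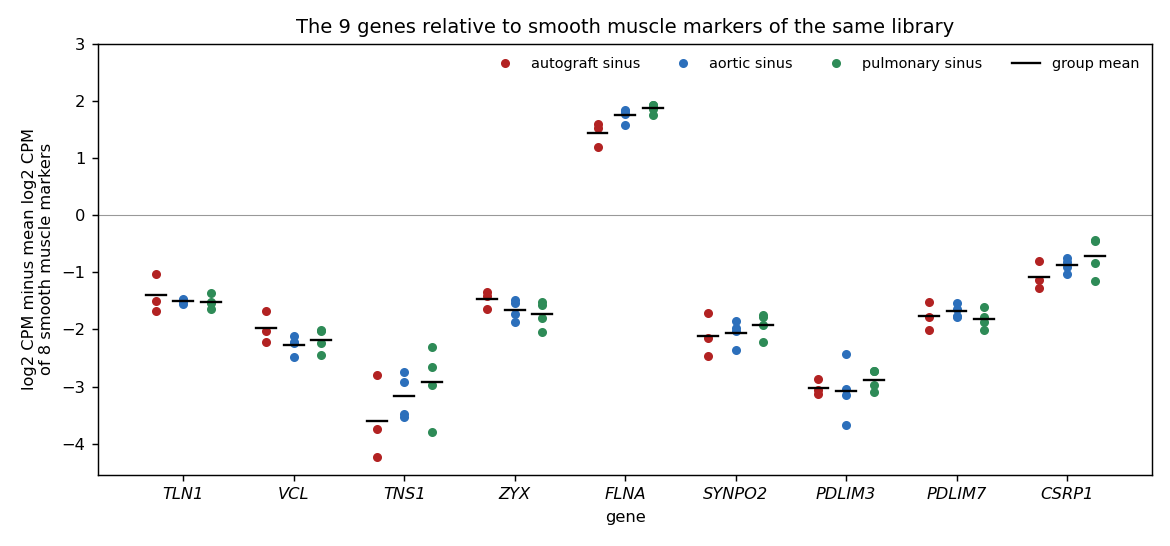
Log2 CPM of each gene minus the mean log2 CPM of 8 smooth muscle markers in the same library (vertical axis); points are libraries, coloured by sinus, and black lines are group means. FLNA in the autograft (1.20 to 1.59) lies below pulmonary sinus (1.75 to 1.94), and the other 8 genes overlap.

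The counts of further genes called below stand beside 5.29% of all genes tested called lower and 6.05% higher against pulmonary sinus, and 1.43% lower and 0.948% higher against aortic sinus. Of 18 paralogs of the 9 genes, 16 were tested, and 1 fell and 1 rose against pulmonary sinus, with a median log2 fold change of -0.11, and 0 passed against aortic sinus (edgeR; 3 at an unadjusted p under 0.05). The 2 of 16 called against pulmonary sinus are close to the share of all genes tested, 11.3%. LDB3, which encodes the PDZ and LIM protein cypher, fell to 55.7 ± 16.8 CPM in the autograft, against 185 ± 84.4 CPM in pulmonary sinus (-1.73 ± 0.34, edgeR adjusted p = 0.0147; 0.0503 without autograft replicate 2). SYNPO2L, a striated muscle relative of SYNPO2, rose to 16.6 ± 11.1 CPM, against 3.06 ± 1.56 CPM (2.44 ± 0.67, adjusted p = 0.0411), but its libraries overlapped and its call ended in 7 of the 11 fits with 1 library left out, those without autograft replicates 1 and 2, aortic replicates 3 and 4 and pulmonary replicates 2, 3 and 4, with adjusted p up to 0.110. It also ended in limma-voom (0.0917), with the animal as a random block (0.0904), with those groups alone (0.0662) and on the log2(FPKM + 1) scale (1.06, limma adjusted p = 0.0695). SYNPO (-0.63, edgeR adjusted p = 0.0581) and PDLIM1 (0.91, adjusted p = 0.0557) came close and did not pass against pulmonary sinus. TLN2 (-0.39), FLNC (-0.17), TNS2 (0.15), TNS3 (0.52) and CSRP2 (0.14) did not pass there either.

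Of 29 other focal adhesion genes tested, 1 fell and 1 rose against pulmonary sinus (median -0.23), and 1 fell against aortic sinus (median -0.18). The 2 of 29 called against pulmonary sinus are no more than the share of all genes tested, 11.3%. The gene that fell in both was KANK2, whose protein binds talin at the rim of adhesions. KANK2 stood at 422 ± 46.3 CPM in the autograft (SD, n = 3), against 836 ± 139 CPM in pulmonary and 727 ± 45.9 CPM in aortic sinus (SD, n = 4 each). Its log2 fold change was -0.99 ± 0.15 against pulmonary sinus (edgeR adjusted p = 0.00758), a call that held whichever library was left out, and -0.79 ± 0.15 against aortic sinus (0.0304), a call that ended in 6 of 11 such fits, those without autograft replicates 1 and 2 or any aortic replicate (up to 0.103). PARVB, which encodes the adhesion adaptor beta-parvin, rose to 13.3 ± 10.4 CPM, against 3.15 ± 1.53 CPM in pulmonary sinus (2.07 ± 0.48, adjusted p = 0.0234; 1.21, adjusted p = 0.0905 without autograft replicate 2, and lost also without pulmonary replicates 2, 3 or 4). Paxillin (PXN, 0.00140), focal adhesion kinase (PTK2, -0.02), integrin-linked kinase (ILK, -0.34) and kindlin-2 (FERMT2, -0.30) did not pass against pulmonary sinus.

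Of 18 other actin crosslinker and dense body genes tested, 3 fell and 2 rose against pulmonary sinus (median 0.03), where 5.29% of all genes tested fell and 6.05% rose, and 1 fell against aortic sinus (median -0.05). SPTAN1, which encodes the spectrin alpha chain of the membrane skeleton, fell in both, to 245 ± 26.2 CPM in the autograft, against 396 ± 18.5 CPM in pulmonary and 356 ± 33.8 CPM in aortic sinus. Its log2 fold change was -0.69 ± 0.11 against pulmonary sinus (edgeR adjusted p = 0.00963), which held whichever library was left out, and -0.54 ± 0.11 against aortic sinus (0.0376), which ended in 8 of 11 such fits, all but those without autograft replicate 1 and pulmonary replicates 1 and 2 (up to 0.126). The dystrophin gene DMD fell by 0.50 ± 0.12 and the coronin gene CORO1C by 0.41 ± 0.12 on the log2 scale against pulmonary sinus, with edgeR adjusted p = 0.0281 and 0.0493. LCP1, which encodes the actin bundler L-plastin of leukocytes, rose to 41.8 ± 16.9 CPM, against 10.3 ± 4.33 CPM in pulmonary sinus (2.02 ± 0.47, adjusted p = 0.0250). Some T cell and macrophage markers also rose in that comparison, as given above, and the cell source of LCP1 was not tested. The calls of LCP1 and DMD ended without autograft replicate 2 (0.0860 and 0.0864) and without pulmonary replicates 2, 3 or 4, that of DMD also without autograft replicate 1 (0.0518), and that of CORO1C in 10 of the 11 fits (up to 0.121 without pulmonary replicate 2), all but the one without pulmonary replicate 4.

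Of 11 integrin subunits, the receptors to which talin binds, 4 fell and 1 rose against pulmonary sinus (median 0.03), where 5.29% of all genes tested fell and 6.05% rose. Against aortic sinus 2 fell and 1 rose (median 0.02), where 1.43% of all genes tested fell and 0.948% rose. ITGA8, the alpha-8 chain that is abundant in smooth muscle, fell to 831 ± 101 CPM in the autograft, against 1278 ± 63.9 CPM in pulmonary and 1214 ± 23.9 CPM in aortic sinus (edgeR log2 fold change -0.62 ± 0.11, adjusted p = 0.0131 against pulmonary sinus, and -0.55 ± 0.11, adjusted p = 0.0372 against aortic sinus). ITGA3 fell to 31.1 ± 6.29 CPM, against 72.4 ± 11.2 CPM in pulmonary and 72.3 ± 17.0 CPM in aortic sinus. ITGA9 fell to 187 ± 61.9 CPM, against 357 ± 38.6 CPM in pulmonary sinus. ITGA2, a collagen receptor chain, rose to 9.51 ± 3.66 CPM, against 2.47 ± 1.32 CPM in pulmonary and 2.08 ± 0.783 CPM in aortic sinus. Against pulmonary sinus the calls of ITGA3 and ITGA8 held whichever library was left out, and those of ITGA9 (up to 0.0661) and ITGA2 (up to 0.0757) ended without autograft replicate 2 and without pulmonary replicates 2 or 3, that of ITGA2 also without autograft replicate 3. Against aortic sinus the call of ITGA3 ended in 3 of the 11 fits (autograft replicate 2, aortic replicates 1 and 3; up to 0.0841), that of ITGA2 in 7 (autograft replicates 2 and 3, any aortic replicate, pulmonary replicate 3; up to 0.108) and that of ITGA8 in 8 (autograft replicates 1 and 2, any aortic replicate, pulmonary replicates 3 and 4; up to 0.122).

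**Figure D5:**
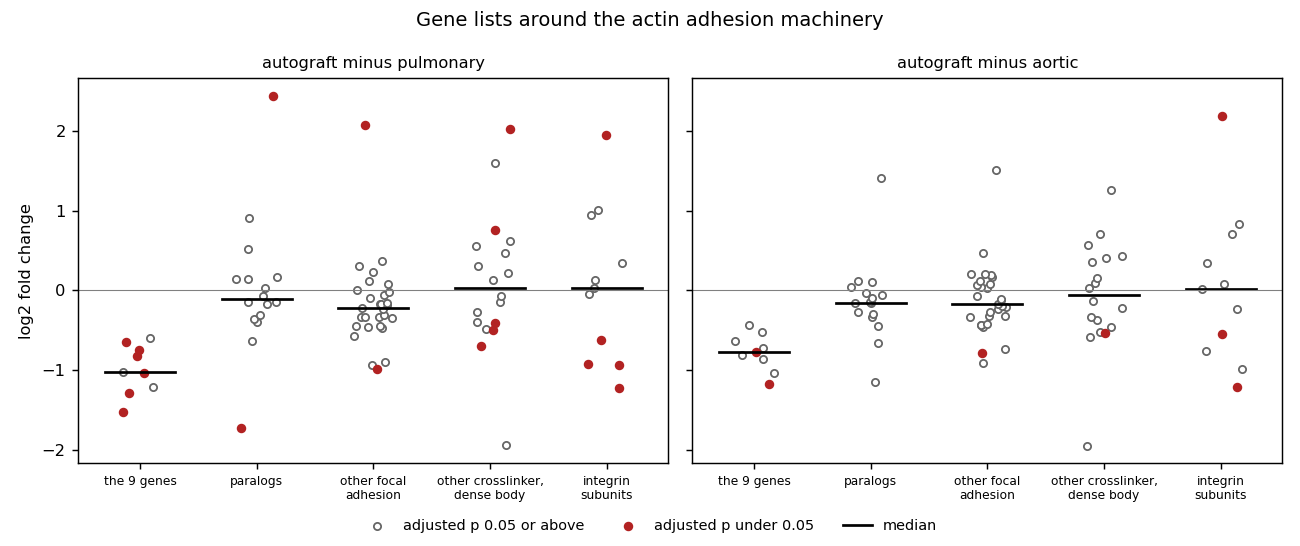
Fitted log2 fold change (vertical axis) of every tested gene in the 5 lists, against pulmonary sinus on the left and aortic sinus on the right; filled points passed at an adjusted p under 0.05 and black lines are medians. The 9 genes have medians of -1.02 and -0.78, and the 4 other lists have medians between -0.23 and 0.03.

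The 5 other genes most like the mean of the 9, by Pearson correlation of log2 CPM over the 11 libraries among 9960 genes with a mean of at least 5 CPM, were JPH2 (0.989), MCAM (0.985), SLC25A23 (0.985), ESYT2 (0.981) and USP7 (0.976). Their Spearman correlations lay between 0.918 and 0.991. The junctophilin gene JPH2 averaged 91.0 CPM in the autograft, against 196 CPM in aortic and 231 CPM in pulmonary sinus, and MCAM, which encodes the adhesion molecule CD146, averaged 509 CPM, against 1052 CPM in aortic and 1229 CPM in pulmonary sinus. These correlations rest on libraries that fall into groups and carry no test.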

How the data were processed

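Per the labels' protocols, TRIzol served for RNA extraction and a TruSeq kit for the libraries. Per the submitters' processing notes, the tools were featureCounts 1.5.3, STAR 2.5.2b, Bowtie2 2.3.3.1 and cutadapt, listed without their roles. Nothing in the sources used here states the genome build, annotation or strand setting. Overlapping and antisense genes may therefore share reads. The deposited tables hold raw counts per gene symbol and, per the labels, the authors' FPKM, each in 1 table per sequencing run. Counts on the unnamed row, up to 0.000522% per library, were left out.

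Counts of the 2 runs were summed per library. All 11 libraries entered 1 edgeR 4.0.16 quasi-likelihood fit (R 4.3.3) after filterByExpr and TMM scaling, with Benjamini-Hochberg adjustment over 14979 genes and a threshold of 0.05. SE is the fold change over the square root of the test's F. Log2 CPM has a prior count of 2. The procedure was tested on simulated data. Alternatives used DESeq2 1.42.0, limma 3.58.1 (voom, and log2(FPKM + 1) of the mean of both runs), other scaling, filters, runs and libraries. Some results are not reported here. The members and lists were chosen with earlier results of these data known. Named genes were the 9 genes, up to 4 called genes per further list and comparison, and the 5 genes closest in pattern. SYNPO, PDLIM1, FLNC, TLN2, TNS2, TNS3, CSRP2, PXN, PTK2, ILK and FERMT2 were named after their values were seen. Replicates are separate animals, per the labels. Aortic and pulmonary libraries with the same number come from the same animal, per the labels. Deviations from the group means correlated within animals D5 (0.43) and D6 (0.45) and not within D3 (-0.18) or D4 (-0.13), whereas aortic D4 with pulmonary D3 gave 0.40 and aortic D3 with pulmonary D4 gave 0.26.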

Additional observations from a re-analysis of the deposited data

Results flagged for a closer look

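SYNPO2 in aortic sinus stood at 1310.1 CPM in replicate 3, apart from the other 3 aortic libraries, of which the nearest held 1064 CPM. The gap was 0.845 of the group's range, above Dixon's 95% critical value for 4 samples. It was the only such case among the 18 combinations of gene and native group tested, and chance gives about 1 in 20.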

How the results depend on the processing

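Against pulmonary and aortic sinus the fitted difference of each of the 9 genes stayed below 0 under every alternative run (450 of 450 values). These fits reuse the same libraries, and most of the 9 genes moved together, so the 450 values are not separate evidence. The number called did not hold. Against pulmonary sinus it was 6 of 9, but 2 when only those groups were fitted, 3 with log2(FPKM + 1) or log2(FPKM + 0.1), and 2 to 8 with 1 library left out. It was 5 without autograft replicate 1 and pulmonary replicate 1 together, a choice made after seeing the data. Against aortic sinus it was 2, but 5 with DESeq2, 1 with those groups alone, 1 without autograft replicate 1 and pulmonary replicate 1 together, 0 without animal D3, 0 with each FPKM setting, and 0 to 2 with 1 library left out. Over all genes tested, 1699 were called against pulmonary sinus, with 2997 in DESeq2, 479 in those groups alone and 452 to 2753 with 1 library left out. Against aortic sinus 356 were called, with 1469 in DESeq2, 110 without animal D3 and 25 to 576 with 1 library left out. The cause was not tested. Against pulmonary sinus, fitting those groups alone also ended the calls of ITGA8 (0.0563), ITGA9 (0.0574), ITGA2 (0.0563), PARVB (0.0703) and CORO1C (0.120). For aortic against pulmonary sinus, where no gene was called, the sign turned for PDLIM7, ZYX and TLN1 and for 0 of the other 6 genes. PDLIM7 (-0.01) stood at 0.021 with limma-voom and at -0.15 to 0.14 with 1 library left out, above 0 without aortic replicates 2 (0.036) or 4 (0.041) and pulmonary replicates 2 (0.14) or 3 (0.066). ZYX ran from -0.24 to 0.070 and TLN1 from -0.20 to 0.018 with 1 library left out, above 0 without pulmonary replicate 2 and, for ZYX, without pulmonary replicate 3 (0.0079). With the animal as a replicate block the counts of called genes among the 9 were 6, 2 and 0 (random block, against pulmonary, against aortic, and aortic against pulmonary sinus) and 0 (fixed block, native libraries), and PDLIM7 stood at 0.021 (random block) and 0.013 (fixed block) between the native sinuses, so the block changed no call of the 9 genes. The block rests on the animal labels, and deviations did not correlate within D3 or D4, so it cannot show whether pairing matters. Each library held at least 3216 counts of each of the 9 genes, and each group held only 3 or 4 animals.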
